A study of Mus musculus with 24 samples.

Results

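The response of macrophages that lack a cis-regulatory element to bacterial lipopolysaccharide (LPS) was read from 8 of the 24 RNA sequencing libraries of a mouse study. The genotype is HDAC9 deltaCIS in the labels and is called dCIS here. Per the series title, the element regulates Hdac9, a gene of the class IIa histone deacetylases. The 8 libraries were taken by their genotype and treatment labels, without use of any measured value, and each of the 14757 expressed genes of the table was tested. The 4 untreated dCIS libraries stand against 4 dCIS libraries from cells given LPS at 100 ng/ml for 6 hours. The other genotypes, wild type (WT) and HDAC9 knockout (KO), each have 4 untreated and 4 LPS libraries and serve here only to show where the response of dCIS differed.

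All libraries came from bone marrow-derived macrophages (BMDM), grown from marrow of femur and tibia in medium with 15% L929-cell-conditioned medium, a source of macrophage colony-stimulating factor. On day 7 the cells were replated and rested for 24 hours without that supplement, and were then given LPS in serum-free medium or left untreated. Strain, age, sex, the number of mice, the position and size of the deleted element, and whether the dCIS line derives from 1 founder were not stated in the labels. Whether replicate libraries derive from different mice or dishes is not stated either, so the spread behind the p-values is that between libraries and could be technical.

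LPS is sensed by Toll-like receptor 4 (TLR4), which signals through the adaptors MyD88 and TRIF. The MyD88 arm frees NF-kB factors from their IkB inhibitors and drives inflammatory cytokines. The TRIF arm activates IRF3 and the production of interferon beta, which acts back on the cells through JAK kinases and STAT factors and switches on antiviral genes. In bone marrow-derived macrophages the same stimulus is known to stop cell division and to shift metabolism towards nitric oxide, itaconate and prostaglandins.

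The cells carried the defining genes of macrophages. All 8 markers in the fixed list (Adgre1, Csf1r, Lyz2, Itgam, Cd68, Fcgr1, Mertk and Cd14) were read in each dCIS library, with a summed level of 15529 to 19879 CPM untreated and 18912 to 24826 CPM after LPS. Of the markers of other cells, 8 of 10 for neutrophils, 10 of 11 for lymphocytes and 9 of 9 for erythroid and mast cells never reached 20 counts in any of the 8 libraries, and Ms4a1 and Ly6g were at 0 throughout. The exceptions were S100a8 (at most 40 counts) and Mmp8 (at most 412) for neutrophils and Cd4 (at most 146) for lymphocytes. Of the markers of dendritic cells 6 of 9 and of osteoclasts 4 of 7 stayed under 20 counts. Those above it were Sirpa (at most 44670 counts), Batf3 (251) and Clec9a (28) for dendritic cells, and Nfatc1 (1018), Acp5 (164) and Ctsk (154) for osteoclasts. CPM are relative levels, read counts divided by a TMM-scaled library size, and because the samples are bulk RNA, fewer cells of a type and less RNA per cell cannot be told apart.

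LPS libraries 3 and 4 of dCIS stand apart from the rest in the number of genes they detect. They detect 17628 and 15997 genes, whereas none of the remaining 22 libraries of the series detects fewer than 20458. Total counts were 16403472, 16563870, 16651501 and 14813435 in LPS libraries 1 to 4 and 15600199 to 16902065 in the untreated ones. Drawn down to a common 14636058 counts, libraries 3 and 4 held 17519 and 15990.3 genes, while LPS libraries 1 and 2 held 20248 and 20286 and the untreated dCIS libraries 21363 to 21901. Genes with exactly 1 count numbered 806 and 552 in libraries 3 and 4 against 2738 to 3257 in each of the others.

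The missing genes were those of low level. Of 1417 genes between 0.5 and 1 CPM in WT and KO after LPS, 7.06% and 19.8% were at 0 in dCIS LPS libraries 3 and 4, and at most 0.565% in any of the other 10 LPS libraries. Between 1 and 2 CPM the shares were 1.41% and 5.31%, between 2 and 5 CPM 0.0560% and 0.504%, and above 5 CPM 0. The share of counts in the top 100 genes (31.9% and 30.1%) and in mitochondrial genes (0.940% and 1.32%) was within the range of the other libraries. Over 2258 genes that rose at least 2-fold in both WT and KO, the median log2 ratio to the untreated dCIS mean was 1.69, 1.78, 1.54 and 1.66 in LPS libraries 1 to 4, so the 4 libraries show a response of like size for these genes. Results on genes below about 2 CPM after LPS rest on libraries 3 and 4 in part. Values without these libraries are given for some of the genes, so a missing value does not mean that nothing moved.

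**Figure D1:**
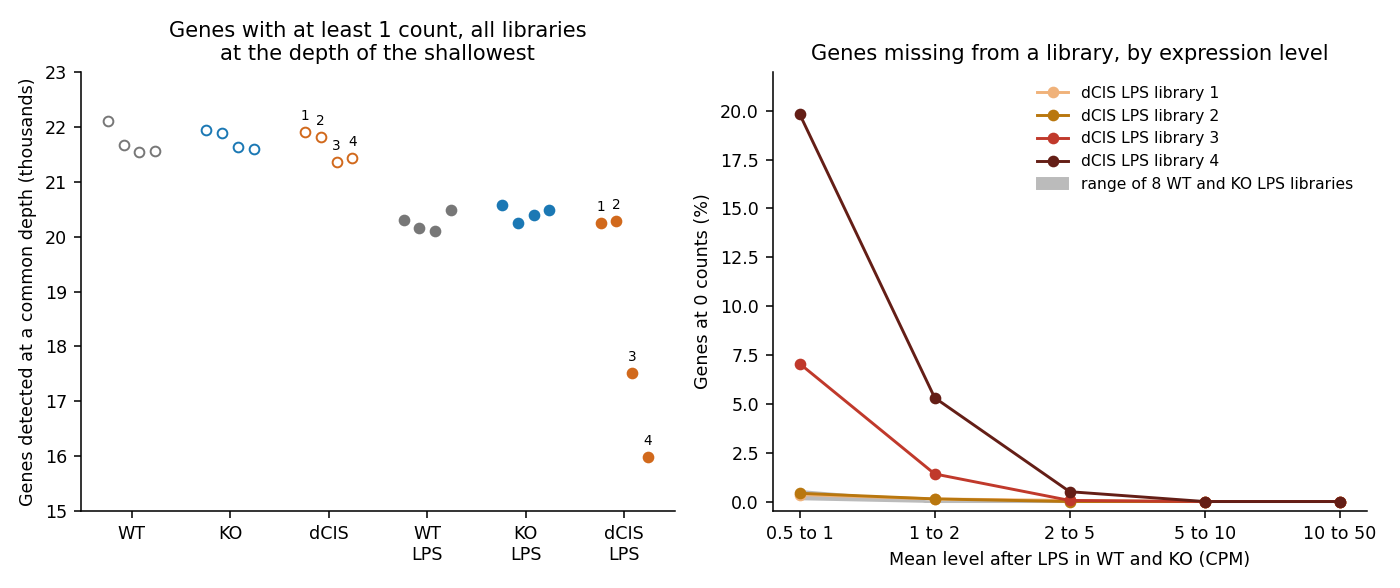
Left, the number of genes with at least 1 count in each of the 24 libraries at a common depth of 14636058 counts (axis not from 0); right, the percentage of genes at 0 counts in each dCIS LPS library by the mean level of the gene in WT and KO after LPS, with the range of the 8 WT and KO LPS libraries in grey. dCIS LPS libraries 3 and 4 lie at 17519 and 15990.3 genes, below every other library, and their missing genes are those under 5 CPM.

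Hdac9 itself was read in each of the 8 libraries. The untreated dCIS libraries 1 to 4 had 17.9, 17.0, 13.0 and 14.5 CPM and the LPS libraries 16.5, 21.2, 9.89 and 11.0 CPM. The groups overlap, with LPS library 2 the highest of the 8 and LPS libraries 3 and 4 the lowest. The log2 fold change was -0.09 (SE 0.20, edgeR adjusted p 0.703; exact 2-sided permutation p 0.714 for the CPM, n = 4 against 4), with 0.27 without LPS libraries 3 and 4 (adjusted p 0.238) and -0.60 without LPS libraries 1 and 2 (adjusted p 0.0164). Scaled by total counts instead of TMM, Hdac9 was lower after LPS, at a log2 fold change of -0.87 (adjusted p 0.000198). WT held 9.15 to 12.4 CPM untreated and 10.4 to 16.5 CPM after LPS, and KO 0.841 to 1.31 and 0.0898 to 0.464 CPM. Gene counts hold no value for the deleted element, so the deletion was not checked here.

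The size of every fold change depends on the scaling, because LPS moved a large share of the RNA. The 1144 genes that rose at least 4-fold in both WT and KO took 3.96% to 4.26% of the counts of the untreated dCIS libraries and 26.3% to 28.3% of those of the LPS libraries. TMM, which was used throughout, sets the middle of the genes near 0 and gave a median log2 fold change of -0.05. Its scaling factors were 1.29 to 1.34 for untreated and 0.735 to 0.826 for LPS libraries. Those of LPS libraries 3 and 4 (0.821 and 0.826) exceeded those of 1 and 2 (0.752 and 0.735). Beside libraries 1 and 2, the CPM of 3 and 4 are therefore lower with TMM than on total counts. With scaling by total counts, an alternative chosen after seeing the data, each log2 fold change was lower by about 0.76. Changes are therefore relative to the middle of all genes, and counts of higher and lower genes on total counts are given beside each group of genes.

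LPS changed most of the expressed genes of dCIS macrophages. Of 14757 genes, edgeR's quasi-likelihood F test called 9547 (64.7%) at a Benjamini-Hochberg adjusted p under 0.05, 4626 higher (31.3%) and 4921 lower (33.3%). On total counts 2233 were higher (15.1%) and 9448 lower (64.0%). These shares are the background for every count of a gene list below. A change of at least 2-fold was called in 5316 genes (36.0%), 2622 higher and 2694 lower. Rises against falls numbered 1275 against 1080 genes at 4-fold or more, 382 against 178 at 16-fold or more and 136 against 30 at 64-fold or more. On total counts the order turned at 4-fold (785 against 2231) and 16-fold (246 against 372) and held at 64-fold (90 against 50). For 7584 genes (51.4%) the 4 LPS libraries did not overlap with the 4 untreated ones. Without LPS libraries 3 and 4 edgeR called 8964 genes. In WT 9055 genes (61.4%) were called, 30.4% higher and 31.0% lower, and in KO 9085 (61.6%), 30.9% higher and 30.7% lower.

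The genes that rose most were nearly silent before LPS. Nos2, the inducible nitric oxide synthase, had 0.0940, 0.0937, 0.149 and 0 CPM in untreated libraries 1 to 4 and 2715, 3043, 2489 and 2728 CPM after LPS. Il6, an inflammatory cytokine, went from 0, 0.0937, 0.248 and 0.133 to 485, 354, 319.7 and 344 CPM, and Il12b, the subunit shared by interleukins 12 and 23, from 0, 0.141, 0 and 0.177 to 297, 225, 208 and 183 CPM. In each of these the lowest LPS library exceeded the highest untreated one by more than 3 orders of magnitude, and LPS libraries 3 and 4 were in the range of 1 and 2 or just below. The fitted log2 fold changes were 14.90 (SE 0.71) for Nos2, 11.56 (SE 0.42) for Il6 and 11.32 (SE 0.38) for Il12b. Values this large rest on a handful of untreated counts (7, 10 and 7 over the 4 libraries) and depend on the prior count of the fit.

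Other genes that rose from under 10 CPM were Lipg, which encodes endothelial lipase, the chemokines Ccl5, Cxcl10 and Cxcl9, and the serine protease inhibitors Serpina3f and Serpina3g. Lipg went from 0.329, 0.0469, 0.149 and 0.222 to 591, 557, 471 and 560.3 CPM (log2 fold change 11.45). Ccl5, which attracts T cells, went from 3.10, 3.00, 4.81 and 5.85 to 5842, 5267, 5101 and 4988 CPM (10.30). Cxcl9, a ligand of the receptor CXCR3, went from 0.0940, 0.984, 0 and 0.310 to 259, 417, 176 and 284 CPM (9.63). Its LPS libraries spread more than 2-fold, with library 3 lowest and library 2 highest. Serpina3f and Serpina3g, near-identical neighbours whose reads the counting could split, rose by 10.42 and 10.20 on the log2 scale, each lowest in LPS library 3.

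Other genes were chosen for a large gain in CPM, which counts fragments and so also grows with transcript length. The antiviral gene Rsad2 went from 50.2, 53.1, 105 and 75.2 to 16995, 17318, 15983 and 16602 CPM, with the LPS libraries close together. Acod1, which makes the antimicrobial metabolite itaconate, went from 95.2, 45.3, 148 and 107 to 11179, 11140.5, 9089 and 9437 CPM, and the interferon-induced Ifit2 from 42.5, 62.1, 65.7 and 58.5 to 6764, 7658, 5953 and 6743 CPM. Actb, the cytoskeletal beta-actin, rose from 9138, 7587, 11653 and 9923 to 25285, 23732, 22145 and 22157 CPM (log2 fold change 1.28, SE 0.13, edgeR adjusted p 1.84e-09; 0.52 on total counts).

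The promoters of 4 of these genes are shown because each holds a short motif of the factors that LPS activates. They run from 250 bases before to 50 after the start of the gene, on the gene's strand, and come from RefSeq for the build GRCm38.p6, which is not the build of the counts. Capitals mark a kappaB motif (GGGANTTTC) or an interferon response element (GAAANNGAA), searched on both strands. Il6 (chr5:30012864-30013163, plus strand) has a kappaB match that begins 44 bases before the start. Cxcl9 (chr5:92328030-92328329, minus strand) has a kappaB match on its other strand, 154 bases before the start, and an interferon response element 175 bases before it. Cxcl10 (chr5:92348840-92349139, minus strand) has an interferon response element at 213 bases before the start and Rsad2 (chr12:26456403-26456702, minus strand) has one on its other strand at 119 bases.
Il6: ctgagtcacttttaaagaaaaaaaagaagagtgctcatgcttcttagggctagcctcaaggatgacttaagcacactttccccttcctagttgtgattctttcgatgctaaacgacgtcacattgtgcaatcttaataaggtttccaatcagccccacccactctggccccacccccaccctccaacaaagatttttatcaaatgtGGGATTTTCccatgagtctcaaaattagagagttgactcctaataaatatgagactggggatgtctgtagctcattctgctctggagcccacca
Cxcl9: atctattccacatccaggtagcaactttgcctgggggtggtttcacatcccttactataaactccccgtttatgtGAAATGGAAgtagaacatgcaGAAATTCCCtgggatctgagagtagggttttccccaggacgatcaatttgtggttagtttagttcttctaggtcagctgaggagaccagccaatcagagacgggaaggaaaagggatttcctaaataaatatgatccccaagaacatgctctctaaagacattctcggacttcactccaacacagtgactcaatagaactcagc
Cxcl10: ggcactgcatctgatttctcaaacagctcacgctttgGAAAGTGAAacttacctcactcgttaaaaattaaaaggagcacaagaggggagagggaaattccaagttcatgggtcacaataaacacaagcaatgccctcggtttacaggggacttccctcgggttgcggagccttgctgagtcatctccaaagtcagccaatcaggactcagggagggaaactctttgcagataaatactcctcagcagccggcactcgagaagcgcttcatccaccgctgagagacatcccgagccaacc
Rsad2: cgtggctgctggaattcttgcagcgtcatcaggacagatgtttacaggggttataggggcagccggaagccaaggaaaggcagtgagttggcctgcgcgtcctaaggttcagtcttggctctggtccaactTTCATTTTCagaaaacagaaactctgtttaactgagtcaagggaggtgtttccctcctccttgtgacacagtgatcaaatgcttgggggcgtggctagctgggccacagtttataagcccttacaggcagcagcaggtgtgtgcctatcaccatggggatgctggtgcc
Of 32851 promoters of the same length in the table, 1.11% hold the kappaB motif and 8.56% the interferon response element. No share was taken over the genes that rose or fell, because 66.5% of the 1275 and 68.7% of the 1080 have a promoter in the table, too few for such a check. The 4 were picked for their match. Of the other genes named above as large rises that have a promoter in the table, Serpina3f has an interferon response element and Il12b, Serpina3g, Acod1 and Ifit2 have neither motif in these letters.

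Genes of the LPS receptor pathway mostly rose, though on total counts as many fell. Of 20 measured members of the TLR4 complex and its adaptors 12 rose and 4 fell (median log2 fold change 0.67; 7 rose and 7 fell on total counts), beside 31.3% and 33.3% of all genes. The adaptor Myd88 rose from 65.4, 63.6, 83.7 and 78.4 to 465, 488, 435 and 439.8 CPM (log2 fold change 2.65, SE 0.10, edgeR adjusted p 1.7e-18). Irak2, a kinase that sustains signalling downstream of MyD88, rose by 2.37, while Irak1, which acts earlier, fell from 80.9, 79.5, 80.1 and 81.8 to 47.1, 48.2, 35.7 and 43.3 CPM. The adaptor Tab1, which activates the kinase TAK1, fell by 1.02 on the log2 scale. For each of these 4 genes the 2 groups of libraries did not overlap.

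Rel factors, their inhibitors and the brakes on signalling mostly rose. Of 15 Rel factors and IkB proteins 14 rose and 1 fell (median 1.94; 11 and 1 on total counts). Nfkb2, the precursor of p52, rose from 78.4, 74.2, 78.1 and 81.3 to 749, 701, 609 and 695 CPM, and the IkB genes Nfkbie and Nfkbib by 3.49 and 2.89 on the log2 scale. The exception was Nfkbid, an atypical IkB, at 21.9, 18.6, 15.4 and 19.1 CPM untreated and 16.9, 14.2, 13.5 and 8.42 CPM after LPS. Its groups overlap, and its call (log2 -0.50, edgeR adjusted p 0.0157) was lost with limma voom, without untreated library 1, without LPS library 4 and without LPS libraries 3 and 4 (log2 -0.27, adjusted p 0.225).

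Of 23 brakes on signalling and mRNA, 19 rose and 3 fell (median 2.10; 16 and 4 on total counts). Socs1, an inhibitor of JAK kinases, rose from 1.36, 1.41, 1.93 and 1.73 to 153, 142, 206 and 215 CPM, here with LPS libraries 3 and 4 the higher pair. Dusp2, a phosphatase of MAP kinases, rose from 3.20, 2.91, 1.93 and 3.33 to 131, 141, 141 and 145 CPM. Zfp36, which destabilises cytokine mRNA, rose from 157, 144, 142 and 165 to 1687, 1624, 1659 and 1769 CPM. Its relatives Zfp36l1 and Zfp36l2 went the other way: Zfp36l1 fell from 70.8, 137, 42.6 and 84.3 to 13.8, 17.5, 18.6 and 11.4 CPM and Zfp36l2 fell by 1.91 on the log2 scale. The untreated libraries of Zfp36l1 spread 3-fold, highest in library 2 and lowest in library 3, yet lay above all LPS libraries.

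Cytokines and chemokines formed 2 of the groups with the highest medians. Of 29 measured cytokines of the IL-1, IL-6, IL-10, IL-12 and TNF families 26 rose and 0 fell (median log2 fold change 4.69; 26 and 1 on total counts), and of 22 chemokines 17 rose and 0 fell (3.82; 17 and 3 on total counts). Il1b, the main substrate of the inflammasome, rose from 2.73, 0.703, 3.02 and 3.37 to 966, 469, 563 and 541 CPM (log2 fold change 8.01, SE 0.45, edgeR adjusted p 2.16e-14). LPS library 1 was the highest by far, and untreated library 2 was lowest. Tnf, an early inflammatory cytokine, rose from 113, 74.5, 94.3 and 127 to 1916, 1741, 1414 and 1586 CPM (4.03, SE 0.22). Il27, a subunit of interleukin 27, rose from 0.564, 0.281, 1.24 and 0.798 to 235, 202, 209.7 and 259 CPM, and Tnfsf10, the death ligand TRAIL, from 0.846, 1.36, 1.19 and 0.976 to 211, 244, 149 and 185 CPM.

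**Figure D2:**
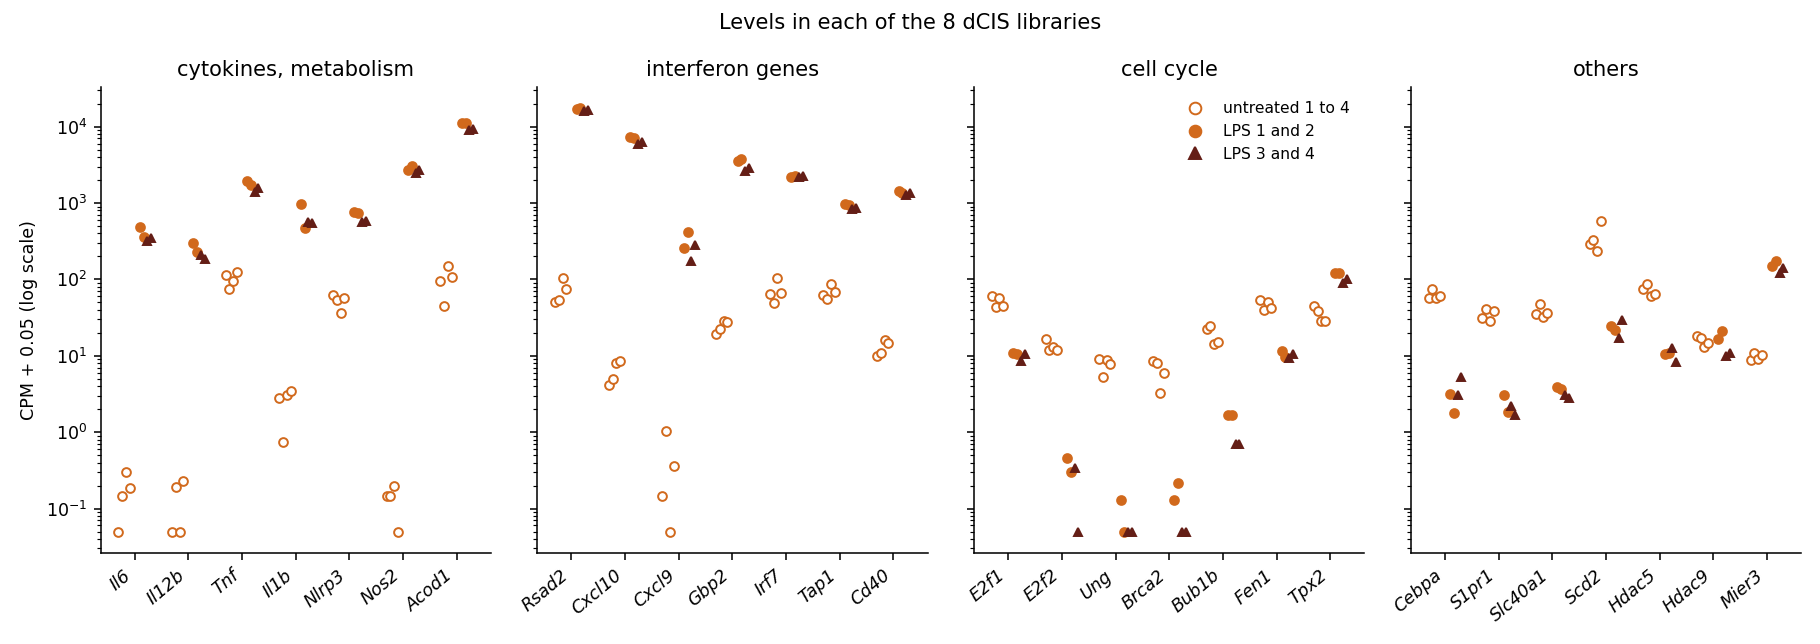
Levels of 28 genes in each of the 8 dCIS libraries, as CPM plus 0.05 on a log axis, in 4 panels by role; open circles are untreated libraries 1 to 4, filled circles LPS libraries 1 and 2, and triangles LPS libraries 3 and 4. Libraries 3 and 4 lie with 1 and 2 for the induced genes and at 0 for fallen genes of low level such as Ung and Brca2, and Hdac9 overlaps between the groups.

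Among 10 chemokine receptors 5 rose and 3 fell (median 0.27; 3 and 4 on total counts). Ccrl2, an atypical receptor that binds chemerin, rose from 5.69, 6.09, 6.54 and 5.10 to 489, 494, 283 and 363 CPM, lower in LPS libraries 3 and 4. Cxcr4, the receptor that retains cells in marrow, fell from 10.3, 23.6, 7.98 and 8.87 to 0.892, 0.904, 1.03 and 1.31 CPM. Untreated library 2 was more than 2 times the next untreated library for Cxcr4, and the groups stay apart without it.

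Inflammasome genes moved in both directions. Of 23 measured sensors, adaptors and effectors 14 rose and 4 fell (median 0.92; 9 and 9 on total counts). Nlrp3, the sensor that LPS primes, rose from 61.6, 53.0, 35.8 and 57.9 to 772, 733, 557 and 587 CPM (log2 fold change 3.67, SE 0.18, edgeR adjusted p 1.02e-15), with LPS libraries 1 and 2 above 3 and 4. Casp1, the protease that cleaves the IL-1 family, rose from 87.0, 85.8, 105 and 97.1 to 506, 516, 469 and 424 CPM, and Aim2, a sensor of DNA, from 26.7, 26.0, 26.8 and 25.3 to 147, 142, 122 and 114 CPM. Il18, which caspase-1 also cleaves, rose from 6.11, 5.95, 7.04 and 6.70 to 168, 179.5, 154 and 163 CPM. Nlrp1b, the sensor of anthrax lethal factor, fell from 16.0, 27.3, 9.32 and 16.1 to 1.62, 4.19, 2.05 and 5.40 CPM, and the other members that fell were Nlrx1, P2rx7 and Nlrp1a, of which P2rx7 and Nlrp1a were named after their values were seen.

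Receptors and decoys of the IL-1 family moved in both directions. Of 7 measured 4 rose and 3 fell, on total counts too. Il1rn, the IL-1 receptor antagonist, rose from 241, 157, 259 and 281 to 3073, 2685, 2644 and 2442 CPM, and Il18bp, which binds and blocks interleukin 18, from 6.68, 8.95, 8.28 and 7.32 to 118, 137, 93.7 and 116 CPM. Il1rl1, the receptor of interleukin 33, fell from 4.42, 3.47, 2.68 and 4.57 to 0.649, 0, 0.513 and 0 CPM, where LPS libraries 2 and 4 held no count. Sigirr, an inhibitory receptor of the family, fell from 0.846, 1.27, 1.34 and 0.710 to 0.405, 0.411, 0.293 and 0 CPM, and the third to fall was Il1rl2. Without LPS libraries 3 and 4, 1 member was called lower in place of 3, and Sigirr was not called (log2 -1.33, edgeR adjusted p 0.0610).

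All 35 tested type I interferon-stimulated antiviral genes rose (median log2 fold change 4.48), also on total counts, beside 31.3% of all genes. Cmpk2, a mitochondrial nucleotide kinase next to Rsad2, rose from 17.1, 23.4, 31.4 and 29.8 to 6586, 6492, 5407 and 5624 CPM. Isg20, an RNA exonuclease, rose from 4.18, 2.95, 4.96 and 5.63 to 309, 293, 289 and 271 CPM (6.03, SE 0.15). All 18 guanylate-binding proteins and IRG GTPases, which attack vacuoles that hold pathogens, rose as well (median 6.20), also on total counts. Gbp2 rose from 18.9, 22.4, 28.9 and 27.3 to 3547, 3799, 2614 and 2865 CPM and Gbp3 from 7.90, 10.4, 8.97 and 11.5 to 1485, 1565, 1211 and 1349.8 CPM, both lower in LPS libraries 3 and 4 than in 1 and 2. Members of this family are close paralogs, and the counting could split reads between them.

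The factors that carry the interferon signal did not move as 1 block. Of 10 interferon regulatory factors and their binding proteins 6 rose and 4 fell, on total counts too. Irf7, which amplifies interferon production, rose from 64.5, 48.8, 104 and 66.5 to 2199, 2285, 2190.3 and 2283 CPM and Irf1 from 33.0, 42.5, 33.3 and 36.8 to 530.5, 525, 407 and 452 CPM. Irf3, the factor that TRIF activates by phosphorylation, fell from 41.7, 36.0, 40.2 and 39.5 CPM to at most 32.7 CPM (log2 -0.45, SE 0.09, edgeR adjusted p 0.000149), and the co-repressor Irf2bp2 from 91.3, 99.8, 98.6 and 91.3 to 24.3, 18.3, 28.5 and 13.5 CPM. Of 15 STAT factors, Janus kinases and interferon receptors 13 rose and 1 fell (median 1.41; 12 and 2 on total counts). Jak2 rose by 4.26, Stat2 by 3.50 and Stat3 by 3.27 on the log2 scale. Ifngr1, the ligand-binding chain of the interferon gamma receptor, was the 1 that fell, from 116, 131, 93.3 and 119.9 to 52.3, 50.7, 38.2 and 33.3 CPM.

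Most genes of antigen presentation and co-stimulation rose. In MHC class I presentation 21 of 21 genes rose (median 2.29; 19 rose and 0 fell on total counts). Tap1, a peptide transporter, went from 62.5, 55.6, 86.5 and 67.7 to 965, 945, 827 and 856 CPM, and Nlrc5, the activator of class I genes, from 26.7, 35.3, 29.2 and 31.6 to 611, 758, 438 and 579 CPM. The non-classical gene H2-T22 rose by 3.22 on the log2 scale, with the caution that MHC genes share sequence. Of 14 MHC class II and co-stimulation genes 13 rose and 0 fell (median 1.74; 8 and 1 on total counts). Without LPS library 4, 10 of 15 tested rose and 1 fell, and without LPS libraries 3 and 4, 13 of 15 rose and 1 fell. Cd40, the receptor for help from T cells, rose from 9.97, 10.7, 16.1 and 14.6 to 1454, 1344, 1278 and 1356 CPM. Cd274, the inhibitory ligand PD-L1, rose by 5.41 and the co-stimulator Cd86 by 3.13, each lowest in LPS library 3.

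Most sensors of microbes rose. Of 19 Toll-like receptors and cytosolic sensors 16 rose and 3 fell (median 1.86; 13 and 3 on total counts). Tlr3, which senses double-stranded RNA, rose from 7.66, 11.4, 8.03 and 11.4 to 227, 259, 198 and 193 CPM and Nod1, a sensor of peptidoglycan, from 8.18, 11.0, 7.68 and 8.25 to 216, 239, 158 and 187 CPM. Tlr13, a sensor of bacterial ribosomal RNA, fell from 229, 270.5, 166 and 194 to 124, 126, 73.5 and 80.4 CPM. Of 18 Fc receptors and C-type lectins 10 rose and 5 fell (median 0.64; 7 and 8 on total counts). The activating receptor Fcgr4 rose by 3.04 and the inhibitory receptor Fcgr2b by 3.31 on the log2 scale, and Fcgr1, the high-affinity receptor, from 174, 169, 245 and 231 to 1558, 1598, 1549 and 1546 CPM.

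**Figure D3:**
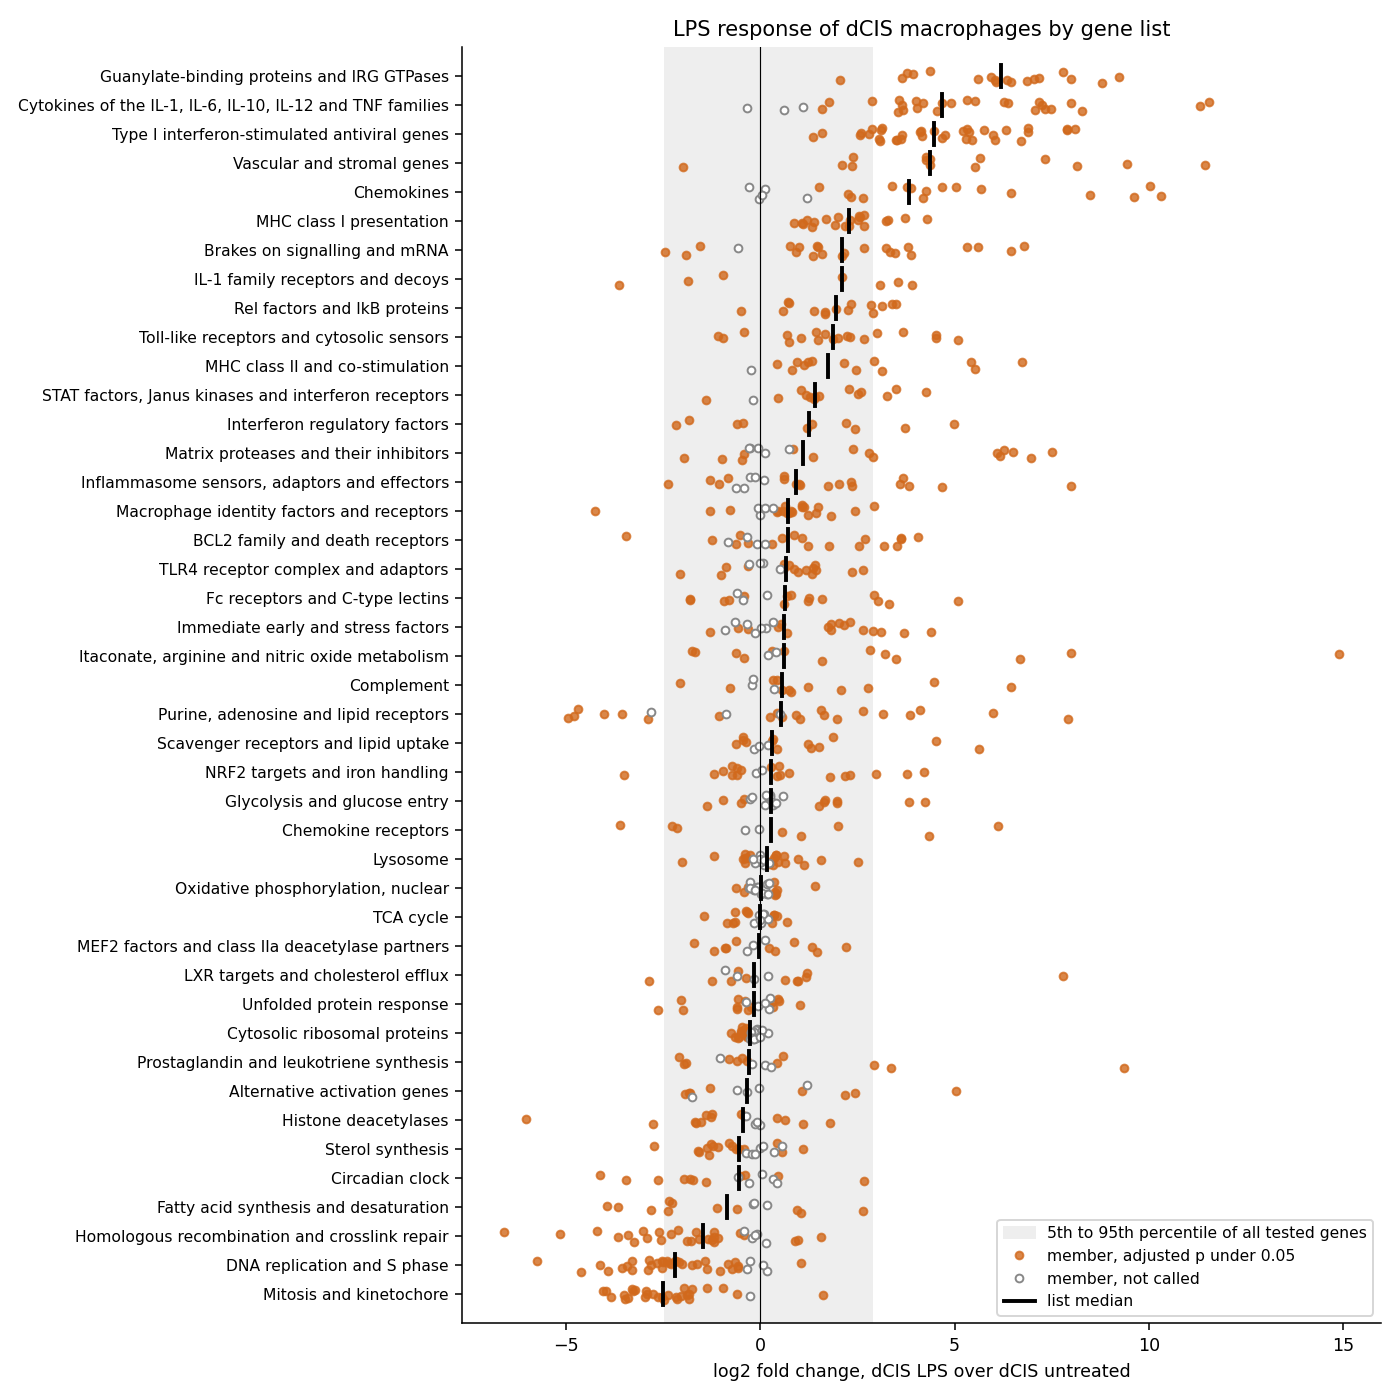
Log2 fold change after LPS in dCIS for each tested member of 43 gene lists, ordered by the median of the list (bar); filled points have an edgeR adjusted p under 0.05 and open points were not called, and the grey band spans the 5th to 95th percentile of all 14757 genes (-2.44 to 2.87). The guanylate-binding proteins, cytokines and antiviral genes have the highest medians (6.20, 4.69 and 4.48) and mitosis and DNA replication the lowest (-2.50 and -2.19).

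Metabolic lists held genes that rose and genes that fell. Of 15 genes of itaconate, arginine and nitric oxide metabolism 9 rose and 4 fell (median 0.60; 7 and 6 on total counts). Slc7a2, the importer of arginine, rose from 0.517, 0.469, 0.496 and 0.443 to 132, 139, 94.4 and 134 CPM and Gch1, which makes the cofactor of nitric oxide synthase, from 19.6, 15.7, 26.4 and 23.2 to 294, 274, 219.9 and 175 CPM. Srm, the spermidine synthase, fell from 48.8, 31.1, 56.9 and 47.2 to 17.1, 13.3, 13.2 and 10.6 CPM. Of 22 genes of glycolysis and glucose entry 7 rose and 4 fell, with 7 and 11 on total counts, a share of higher genes close to the 31.3% of all genes. The regulator Pfkfb3 rose from 39.2, 43.8, 35.7 and 40.8 to 475, 612, 635 and 545 CPM, the transporter Slc2a6 by 4.23 and the hexokinase Hk3 by 1.96 on the log2 scale.

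In the TCA cycle 5 of 20 genes rose and 8 fell, near the 31.3% and 33.3% of all genes, while on total counts 0 rose and 19 fell, where 15.1% and 64.0% of all genes did. Idh1, the cytosolic isocitrate dehydrogenase, fell from 149, 188, 159 and 189 to 64.5, 68.0, 57.1 and 59.3 CPM. Of 16 genes of prostaglandin and leukotriene synthesis 5 rose and 7 fell, with the share of higher genes close to the 31.3% of all genes. On total counts 3 rose and 10 fell, near the 15.1% and 64.0% of all genes. Ptgs2, the inducible cyclooxygenase, rose from 1.88, 2.34, 0.992 and 1.82 to 1657, 1327, 758 and 947 CPM (log2 fold change 9.37, SE 0.37, edgeR adjusted p 9.1e-18), with LPS library 3 lowest and library 1 highest. Pla2g4a, the phospholipase that frees its substrate, rose from 11.3, 12.9, 12.0 and 15.6 to 146, 155, 113 and 119.9 CPM.

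In sterol and fatty acid synthesis more genes fell than rose. Of 23 sterol genes 13 fell and 3 rose (median -0.54; 20 and 0 on total counts). Dhcr7, the last enzyme of cholesterol synthesis, fell from 43.2, 51.8, 37.8 and 61.3 to 7.14, 11.4, 4.47 and 6.13 CPM. Of 14 genes of fatty acid synthesis and desaturation 8 fell and 3 rose (median -0.86; 11 and 2 on total counts). The desaturase Fads1 fell from 73.4, 75.0, 63.6 and 85.3 to 17.1, 14.6, 12.0 and 13.2 CPM. The acyl-CoA synthetase Acsl3 fell by 2.80, while its relative Acsl1 rose by 2.63 on the log2 scale. Scd2, another desaturase, fell from 292, 332, 238 and 575 to 24.7, 21.9, 16.8 and 29.7 CPM. Untreated library 4 was well above the other untreated libraries for Scd2.

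Of 15 genes of the LXR receptors and cholesterol efflux 6 rose and 5 fell (2 and 9 on total counts), beside 31.3% and 33.3% of all genes. Ch25h, which makes 25-hydroxycholesterol, rose from 0.517, 0.0937, 0.496 and 0.843 to 104, 109, 97.5 and 131 CPM. Apoe, a carrier of lipids, was already low and fell from 5.50, 11.0, 5.11 and 8.60 to 1.54, 1.40, 0.879 and 0.327 CPM. Of 16 scavenger receptors 9 rose and 4 fell (4 and 10 on total counts). The oxidised lipoprotein receptor Olr1 rose from 0.188, 0.281, 0.149 and 0.177 to 14.9, 14.0, 4.76 and 7.36 CPM, about 2 times higher in LPS libraries 1 and 2 than in 3 and 4, and Axl, a receptor for dying cells, from 8.27, 9.61, 4.71 and 5.45 to 202, 199.7, 108 and 131 CPM. Trem2, a lipid-sensing receptor, fell from 631, 577, 626 and 574 to 470.1, 400.3, 349.6 and 346 CPM.

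Genes of cell division fell nearly throughout. Of 37 genes of DNA replication and S phase 32 fell and 1 rose (median -2.19; 36 and 1 on total counts), beside 33.3% of all genes called lower. Of 30 genes of mitosis and the kinetochore 28 fell and 1 rose (median -2.50; 29 and 1 on total counts). Of 32 genes of homologous recombination and crosslink repair 24 fell and 3 rose (median -1.47; 28 and 1 on total counts). E2f1, which drives entry into S phase, fell from 60.3, 43.8, 56.5 and 45.0 to 10.9, 10.4, 8.50 and 10.5 CPM (log2 -2.35, SE 0.13, edgeR adjusted p 6.29e-15). Fen1, the flap endonuclease of replication, fell from 54.5, 39.8, 50.7 and 41.7 to 11.6, 9.45, 9.37 and 10.4 CPM. The mitotic checkpoint kinase Bub1b fell from 22.1, 24.4, 14.3 and 15.2 to 1.62, 1.64, 0.659 and 0.654 CPM, and Kif23, a motor of cytokinesis, from 24.8, 25.2, 12.8 and 12.3 to 2.51, 1.97, 1.17 and 0.981 CPM. For both, LPS libraries 3 and 4 lay below 1 and 2, and untreated libraries 3 and 4 lay below 1 and 2 as well.

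The largest falls ended near 0. Ung, which removes uracil from DNA, went from 9.12, 5.20, 8.83 and 7.81 to 0.0811, 0, 0 and 0 CPM, or 659 counts against 1, a ratio of 389 with a 95% counting interval of 69.6 to 15390.5. Brca2, which acts in homologous recombination, went from 8.56, 8.11, 3.22 and 5.94 to 0.0811, 0.164, 0 and 0 CPM, or 554 counts against 3, a ratio of 109 (37.1 to 530.3). The counts left after LPS were in library 1 for Ung and in libraries 1 and 2 for Brca2, so the fitted log2 fold changes of -8.15 and -6.59 moved to -7.33 and -5.64 without LPS libraries 3 and 4. E2f2 fell from 16.4, 11.9, 12.9 and 11.9 to 0.405, 0.247, 0.293 and 0 CPM (-5.76, and -5.31 without LPS libraries 3 and 4). The exonuclease Exo1 fell from 7.94, 6.94, 5.85 and 6.08 to 0.243, 0.411, 0.0732 and 0 CPM (-5.17, and -4.33 without LPS libraries 3 and 4). Zfp395, a zinc finger gene, fell from 22.5, 32.7, 19.0 and 21.9 to 0.243, 0.658, 1.10 and 0.164 CPM.

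A few genes of these lists rose. Tpx2, which targets Aurora A to the spindle, rose from 44.5, 38.9, 28.2 and 28.5 to 119.6, 121, 90.2 and 101 CPM and Rfc3, a subunit of the clamp loader, from 15.1, 14.7, 18.6 and 14.3 to 33.4, 33.9, 31.2 and 30.6 CPM. The end-resection factor Rbbp8 rose from 20.4, 20.7, 16.1 and 17.3 to 61.1, 64.7, 45.8 and 49.8 CPM. The damage kinase Atm was called higher (log2 0.89, SE 0.19, edgeR adjusted p 0.000246), although its groups overlap, and not on total counts (0.12).

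The promoters of Brca2 and E2f2 are shown because both genes fell with E2f1 and each holds an E2F motif. Capitals mark an E2F motif (TTTCCCGC or TTTGGCGC, either strand) and, in Brca2, also an interferon response element. Brca2 (chr5:150522371-150522670, plus strand, GRCm38.p6) has its E2F match on the other strand, 168 bases before the start, and the interferon response element at 202 bases. In the first of 2 listed promoters of E2f2 (chr4:136172024-136172323, plus strand) the match begins 39 bases after the start.
Brca2: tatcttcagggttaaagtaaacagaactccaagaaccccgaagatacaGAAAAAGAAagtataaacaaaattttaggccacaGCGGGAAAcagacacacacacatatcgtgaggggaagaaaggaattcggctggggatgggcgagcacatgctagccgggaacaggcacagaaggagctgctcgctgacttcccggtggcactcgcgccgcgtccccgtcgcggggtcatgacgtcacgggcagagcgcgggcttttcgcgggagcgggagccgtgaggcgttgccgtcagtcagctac
E2f2: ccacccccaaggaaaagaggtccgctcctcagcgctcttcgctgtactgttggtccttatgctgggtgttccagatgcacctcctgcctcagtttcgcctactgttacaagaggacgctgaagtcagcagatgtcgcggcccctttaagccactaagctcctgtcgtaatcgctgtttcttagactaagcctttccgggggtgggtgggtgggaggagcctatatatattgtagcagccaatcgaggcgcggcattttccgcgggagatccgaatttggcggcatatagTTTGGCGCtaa
An E2F motif is in 1.56% of the 32851 promoters. Both genes were picked for their match. The window of Ung holds none of the motifs searched, nor is an E2F motif in those of Ankle1, Arhgap19, Ccsap, Fam214a and Rasgrp3, other genes with large falls. Ifit2, which rose, has an E2F match that begins 12 bases before its start. A match is a description of letters and not evidence of binding.

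Of 24 macrophage identity factors and receptors 17 rose and 3 fell (median 0.72), with 6 and 7 on total counts. Cebpa, a factor of myeloid differentiation, fell from 56.2, 75.8, 57.1 and 61.1 to 3.08, 1.73, 3.00 and 5.15 CPM (log2 -4.27, SE 0.23, edgeR adjusted p 9.14e-15). Of 13 alternative activation genes 4 rose and 4 fell (3 and 8 on total counts), shares close to the 31.3% and 33.3% of all genes, with the lipid receptor Pparg among those that fell, from 31.4, 33.3, 21.3 and 28.9 to 8.03, 9.87, 6.88 and 5.15 CPM.

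Receptors for lipid mediators and purines changed in both directions. Of 24 measured members 14 rose and 7 fell (median 0.54; 7 and 11 on total counts). Lpar1, a receptor of lysophosphatidic acid, rose from 0.141, 0.0937, 0.149 and 0.0443 to 27.2, 30.9, 18.7 and 31.7 CPM, and Adora2a, an anti-inflammatory adenosine receptor, from 0.940, 0.937, 1.83 and 0.798 to 75.3, 63.5, 74.1 and 70.2 CPM. S1pr1, the receptor of sphingosine 1-phosphate, fell from 31.1, 40.9, 28.6 and 38.4 to 3.00, 1.81, 2.12 and 1.64 CPM, and Gpr183, the receptor of the oxysterol that derives from the product of Ch25h, from 13.6, 11.6, 10.2 and 14.5 to 0.405, 0.411, 1.03 and 0 CPM.

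Iron handling and secreted proteins also responded. Lcn2, which binds bacterial siderophores, rose from 11.9, 16.6, 21.0 and 14.9 to 288, 270.1, 382 and 262 CPM, whereas the iron exporter Slc40a1 fell from 35.6, 47.5, 31.7 and 35.8 to 3.89, 3.62, 3.00 and 2.78 CPM. Their list of 21, which joins targets of the factor NRF2 with iron handling genes, had 11 higher and 8 lower (6 and 12 on total counts). Of 15 complement genes 10 rose and 2 fell (median 0.55; 4 and 5 on total counts), among them C3, the central component, from 75.6, 82.7, 90.3 and 81.2 to 2078, 2418, 1267 and 1496 CPM. The fall of C5ar2 from 0.611, 0.469, 0.545 and 0.798 to 0.324, 0.247, 0 and 0 CPM was not called without LPS libraries 3 and 4, which hold its 0 counts (log2 -1.07, edgeR adjusted p 0.104). Of 20 matrix proteases and inhibitors 11 rose and 4 fell (median 1.10; 10 and 7 on total counts). The collagenase Mmp13 rose from 27.1, 21.6, 27.3 and 28.6 to 2499.7, 2286, 2213 and 2429.96 CPM, while Plau, the urokinase plasminogen activator, fell from 241, 167, 161 and 226 to 72.8, 64.7, 27.6 and 37.8 CPM.

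Genes best known from vessels and stroma also rose. Of 14 measured members 13 rose and 1 fell (median 4.37), also on total counts. Like the other lists, this one was chosen with earlier results of these data known. Its count therefore describes the members and is not a test. Edn1, the vasoconstrictor endothelin 1, rose from 1.08, 0.656, 0.694 and 0.931 to 328, 266, 178 and 189.97 CPM and Kdr, a receptor for VEGF, from 2.30, 2.25, 1.88 and 2.08 to 42.2, 46.9, 31.6 and 42.6 CPM. Its ligand Vegfa fell from 60.8, 75.9, 36.1 and 80.9 to 15.3, 17.1, 13.8 and 17.3 CPM. The 4 tested of 10 markers of fibroblasts and endothelium (Pecam1, Cdh5, Kdr and Pdgfrb) rose too, and the summed level of the list went from 3.52 to 4.97 CPM untreated to 47.7 to 70.2 CPM after LPS. Of the other markers of these cells Col3a1 and Pdgfra were at 0 in all 8 libraries and Col1a1, Col1a2, Lum and Dcn had at most 7 counts in any library. The part of such cells in these values was not tested.

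Survival, stress and clock genes gave mixed counts. Of 22 genes of the BCL2 family and death receptors 13 rose and 5 fell (median 0.72; 10 and 10 on total counts). Cflar, an inhibitor of caspase-8, rose from 123, 117, 119.9 and 119 to 1460.5, 1590.4, 1194 and 1274 CPM. The pro-death genes Bmf and Bcl2l11 fell by 3.45 and 1.24 on the log2 scale, and Bcl2l11, whose groups overlap, was not called without LPS libraries 3 and 4 (-0.75, edgeR adjusted p 0.0913). Without those libraries Bmf stood at -4.59. Of 20 genes of the unfolded protein response 6 rose and 9 fell (1 and 19 on total counts), beside 31.3% and 33.3% of all genes. The chaperone Hspa5 was higher, from 1468, 1339, 1782 and 1658 to 3009, 3035, 3409 and 3239 CPM, and the sensor Eif2ak3 lower, from 15.1, 28.4, 14.4 and 20.2 to 5.68, 6.49, 4.03 and 2.78 CPM. Of 16 clock genes 2 rose and 9 fell (1 and 12 on total counts). Nfil3, a repressor, rose from 7.62, 8.43, 6.84 and 9.49 to 46.9, 62.3, 47.7 and 47.9 CPM and Bhlhe41 fell from 108, 89.2, 101 and 83.1 to 33.4, 27.5, 33.7 and 20.4 CPM. Of 30 lysosomal genes 14 rose and 8 fell (3 and 24 on total counts), with the protease Ctsc higher by 2.52 and the factor Mitf by 1.57, while its relative Tfeb fell by 2.01 on the log2 scale.

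Relatives and partners of HDAC9 were counted next. Of 18 histone deacetylases 10 fell and 4 rose (median -0.45; 14 and 2 on total counts). Hdac5, of the same class as Hdac9, fell from 74.9, 88.1, 60.4 and 63.8 to 10.5, 10.8, 12.6 and 8.26 CPM (log2 -2.77, SE 0.15, edgeR adjusted p 1.18e-14). Hdac1, of class I, rose from 32.8, 32.1, 32.3 and 37.8 to 110.2, 111, 129 and 114 CPM and Sirt6, a sirtuin, from 12.3, 10.8, 9.07 and 9.71 to 21.2, 20.2, 25.5 and 23.3 CPM. Of 14 MEF2 factors and class IIa partners 6 rose and 5 fell (3 and 10 on total counts), not far from the 31.3% and 33.3% of all genes. Mef2c and Mef2d, whose products class IIa deacetylases bind, fell by 1.70 and 0.90, and Sik3, a kinase that keeps these deacetylases in the cytoplasm, rose by 2.21 on the log2 scale.

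On TMM scaling, 16 of 33 ribosomal protein genes were called lower in dCIS, and the few called in WT and KO were higher. Their summed share of total counts was lower after LPS in each genotype. WT held 1.38% to 1.58% untreated and 0.847% to 1.03% after LPS, and KO 1.07% to 1.16% and 0.679% to 0.742%. In dCIS the share was 1.23% to 1.90% untreated and 0.667% to 0.832% after LPS. Of 33 genes 16 fell and 0 rose in dCIS (median log2 fold change -0.27), beside 33.3% and 31.3% of all genes. In WT 6 rose and 0 fell (0.12), beside 30.4% and 31.0% of all genes. In KO 7 rose and 0 fell (0.14), beside 30.9% and 30.7%. Rpsa, a small subunit protein, had 401, 296, 601 and 383 CPM untreated and 300.1, 239, 249.95 and 203 CPM after LPS (log2 -0.76, SE 0.15, edgeR adjusted p 8.67e-05), and its groups overlap, as do those of all 33 genes. Over all tested genes, 51.4% had groups without overlap. The summed level was 11055, 9198, 14717 and 11528 CPM in untreated libraries 1 to 4 and 11072, 9800, 9279 and 8081 CPM after LPS. Untreated library 3 was the highest of the 8 and LPS library 4 the lowest, while the other 6 overlap. Without LPS library 4, 9 of the 33 were called lower, without LPS libraries 3 and 4 6, without untreated libraries 2 and 3 21, and on total counts 32. Over all genes, 4419 were called lower without LPS libraries 3 and 4, against 4921 with all libraries. The difference of the response from the mean of WT and KO was called for 0 of the 33 by edgeR. An unadjusted edgeR p under 0.05 was found for 27, beside 12.7% of all genes, and the list was not tested as a set.

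Among nuclear genes of oxidative phosphorylation fewer were called higher in dCIS than in WT or KO on TMM scaling. Calls on total counts were taken for dCIS alone. Of 25 genes 6 rose and 3 fell in dCIS (median 0.02; 1 and 24 on total counts), against 14 and 0 in WT (0.28) and 16 and 0 in KO (0.36). The difference of the response from the mean of WT and KO was called for 0 of the 25 by edgeR. An unadjusted edgeR p under 0.05 was found for 13, beside 12.7% of all genes. With none called, these counts do not show that the genotypes differ, and the list was not tested as a set. Cox6c, a subunit of cytochrome oxidase, had 67.8, 56.3, 93.2 and 79.4 CPM untreated and 67.9, 63.9, 44.5 and 46.4 CPM after LPS in dCIS, with LPS libraries 3 and 4 lowest. Its log2 fold change was -0.41 (SE 0.14, edgeR adjusted p 0.012) and -0.17 without those libraries (adjusted p 0.34), against 0.36 in WT and 0.53 in KO.

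The response in dCIS also varied with transcript length. Length was that of the longest transcript of a gene, for genes with a mean of at least 10 CPM over both dCIS groups. Over 61 genes with transcripts under 500 nucleotides the median log2 fold change was -0.35 in dCIS, 0.22 in WT and 0.24 in KO, and over 457 genes of 8000 nucleotides or more it was 0.24, 0.13 and 0.10. Single libraries carried a length trend of their own. Against the other 3 of its group, untreated library 3 was at 0.64 for the shortest and -0.39 for the longest genes, and untreated library 2 at -0.54 and 0.42. Among LPS libraries, library 2 was at 0.39 and library 3 at -0.31 for the longest genes. The part of transcript length in the ribosomal and oxidative phosphorylation values was not tested.

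**Figure D4:**
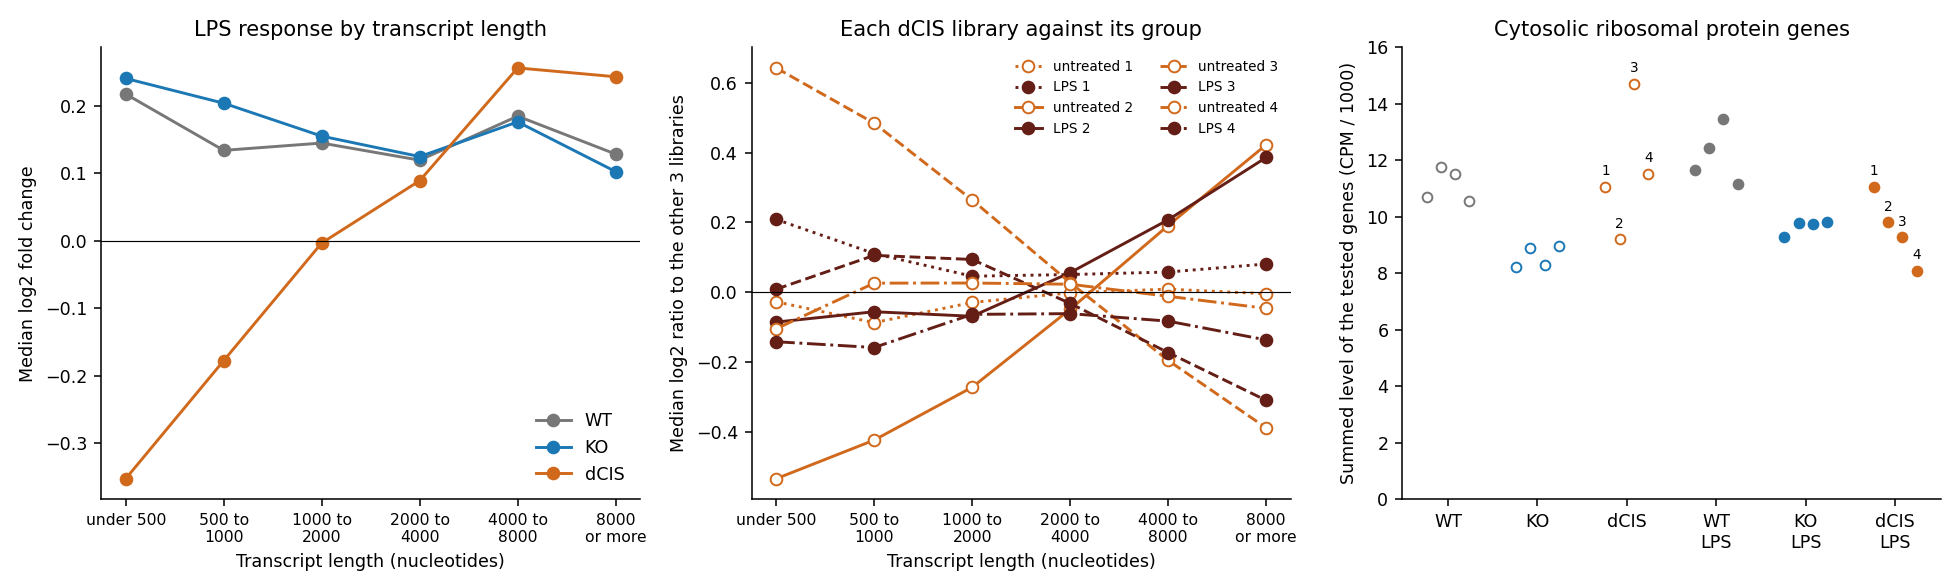
Left, median log2 fold change after LPS by transcript length for WT, KO and dCIS; middle, median log2 ratio of each dCIS library to the other 3 of its group by length; right, summed level of 33 cytosolic ribosomal protein genes in each of the 24 libraries, as CPM divided by 1000. The dCIS line runs from -0.35 for transcripts under 500 nucleotides to 0.24 for those of 8000 or more, and untreated dCIS libraries 2 and 3 slope in opposite directions. The left and middle panels hold genes with a mean of at least 10 CPM over both dCIS groups.

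Whether the response of dCIS differed from that of the other genotypes was tested gene by gene, as the difference of the log2 fold changes in the fit of all 24 libraries. These comparisons share the 8 dCIS libraries. Against WT edgeR called 0 of 14757 genes (0.0%), with 1159 at an unadjusted p under 0.05, 10 called by DESeq2 and 1 by limma voom with quality weights. Against KO it called 4 (0.0271%), 3 of them lower (0.0203%) and 2 differing at least 2-fold (0.0136%), and against the mean of WT and KO 1 (0.00678%). Of the 1202 genes called in dCIS and in neither WT nor KO, edgeR called 0 in the difference from the mean, and 475 had an unadjusted p under 0.05. Over all 14757 genes 1872 (12.7%) had such a p in that difference, but the 1202 were picked by calls from the same libraries. Conversely 703 of 8240 genes called in both WT and KO in the same direction were not called in dCIS. With untreated library 2 left out, the calls against the mean of WT and KO went from 1 to 440, and with LPS libraries 1 and 2 left out to 604, so the count depends on which libraries enter. It also depends on whether replicate numbers are taken as pairs, which the labels do not settle. A block on these numbers within each genotype gave 1 call against WT, 158 against KO and 345 against the mean.

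The gene called against the mean was Mier3, which encodes a co-repressor that recruits histone deacetylases. It had 8.88, 10.8, 8.97 and 10.1 CPM in untreated dCIS and 149, 177, 122 and 139 CPM after LPS, while WT rose to 62.3 to 70.9 CPM and KO to 79.7 to 94.7 CPM from like untreated levels. The 4 dCIS LPS libraries lay above all 8 LPS libraries of WT and KO. The rise was 3.92 on the log2 scale in dCIS, 3.04 in WT and 3.23 in KO. The difference from their mean was 0.79 (SE 0.13, edgeR adjusted p 0.0431), from WT 0.88 (SE 0.15, adjusted p 0.0737) and from KO 0.69. Across 35 alternatives the difference from the mean lay between 0.61 and 0.94, and it was called in 18 of them and in 8 of the 24 that leave out 1 library.

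The 4 genes called against KO were Rnf144a, Nol10, Lsm11 and Med21. Rnf144a, an E3 ubiquitin ligase gene on chromosome 12 with Hdac9, rose from 0.846, 1.22, 0.892 and 0.621 to 5.60, 7.15, 3.73 and 5.40 CPM in dCIS and to 2.90 to 4.82 CPM in WT, but was at 0.159 to 0.742 CPM in KO after LPS (difference 3.56, SE 0.47, edgeR adjusted p 0.000781). Nol10, which encodes a nucleolar protein and also lies on chromosome 12, reached 37.6, 37.9, 27.5 and 30.2 CPM in dCIS, 35.4 to 37.9 in WT and 81.8 to 96.3 in KO (difference -1.26, SE 0.17, adjusted p 0.000781). For both genes the KO libraries stood apart from the other genotypes after LPS. Both differences were called in each of 28 alternatives. The rise of Nol10 itself in dCIS (0.90) was not called on total counts. Lsm11, of the histone mRNA processing machinery, and Med21, a subunit of Mediator, differed by -0.998 and -0.97 (adjusted p 0.0471 each) and were called in 9 and 12 of 28 alternatives. Their own rises in dCIS, 0.72 and 0.62 on the log2 scale, turned to -0.04 and -0.14 on total counts.

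**Figure D5:**
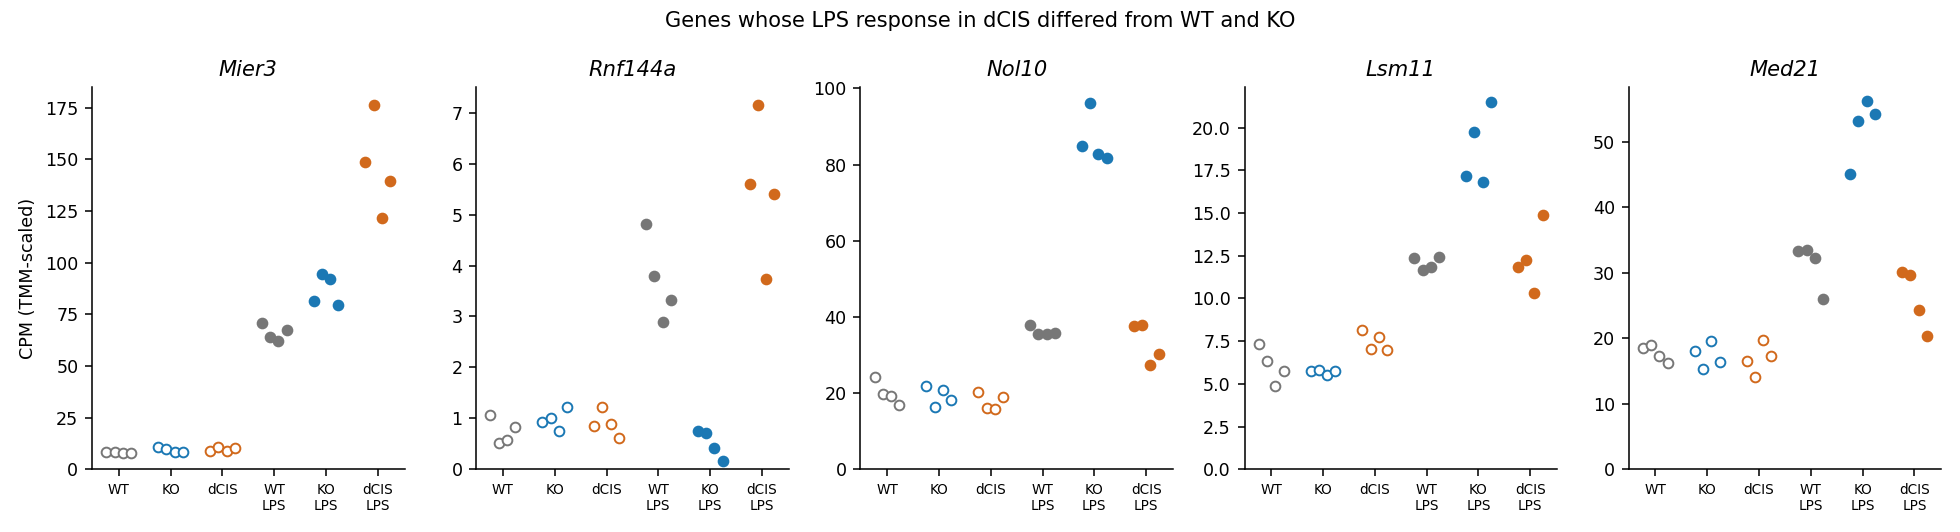
CPM of the 5 genes called in a test of the response difference, in each of the 24 libraries by genotype and treatment (open, untreated; filled, LPS), each panel with its own axis from 0. For Mier3 the 4 dCIS LPS libraries (122 to 177 CPM) lie above those of WT and KO, and for the other genes the KO LPS libraries lie apart.

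For 4 inflammatory genes the response of dCIS was set against the mean of WT and KO. The difference was -0.35 (SE 0.48, edgeR adjusted p 0.793) for Il1b, 0.10 (SE 0.20, edgeR adjusted p 0.869) for Nlrp3, -0.01 (SE 0.24, edgeR adjusted p 0.992) for Tnf and 0.37 (SE 0.74, edgeR adjusted p 0.873) for Il6 on the log2 scale. None of these passed the threshold, which does not show that the responses are alike.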

How the data were processed

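RNA sequencing libraries (oligo-dT beads, 200 ng of RNA, 60-nucleotide paired-end reads, per the labels' protocols) were deposited by the authors as raw read counts per gene. The submitters' processing notes name STAR, edgeR and the build mm39; versions, annotation and strand setting were not stated there, so reads of paralogs or of antisense partners cannot be assigned with certainty. Of 56941 gene IDs, 51948 (91.2%) matched a symbol.

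Groups came from the labels. Counts were fitted with edgeR 4.0.16 (R 4.3.3) over all 24 libraries with 1 mean per group, TMM scaling, filterByExpr (minimum count 10, minimum total 15), the quasi-likelihood F test and Benjamini-Hochberg adjustment over all 14757 tested genes; an adjusted p under 0.05 counts as called. Total counts were 14636058 to 19181707. The SE is the log2 fold change divided by the square root of F. Steps across genes were tested on simulated data in which few genes changed, with rises and falls of like size. The shift in scaling that LPS brought was therefore not tried. DESeq2 1.42.0, limma 3.58.1 (voom with quality weights), other scaling, filters and left-out libraries were alternatives. The smallest exact 2-sided permutation p of 4 against 4 is 0.0286. Intervals cover counting error only.

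Members and gene lists were chosen with earlier results of these data known. Genes named are Hdac9, the largest rises and falls without overlap, the largest changes of mean CPM, per list up to 3 called members with the smallest p and up to 2 against the direction of most, the smallest p of each response difference, and Il1b, Nlrp3, Tnf and Il6; some genes that the rule names are not reported here. The labels do not say whether replicate numbers pair the dCIS libraries, and the numbers were not taken as pairs.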

Additional observations from a re-analysis of the deposited data

Results flagged for a closer look

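In groups of 4 libraries, 9 of 284 sets of values had 1 library far from the other 3, where chance gives about 1 in 20. Among untreated dCIS libraries these were Serpina3g in library 4 (0.355 CPM against 0.141 to 0.149), Cxcr4 in library 2 (23.6 CPM against 7.98 to 10.3), Hk3 in library 4 (291 CPM against 260.3 to 263), Hdac1 in library 4 (37.8 CPM against 32.1 to 32.8) and Adora2a in library 3 (1.83 CPM against 0.798 to 0.940). Among LPS libraries they were Ung in library 1 (0.0811 CPM against 0), Slc7a2 in library 3 (94.4 CPM against 132 to 139), Nfil3 in library 2 (62.3 CPM against 46.9 to 47.9) and the total count of library 4 (14813435 against 16403472 to 16651501). The flag of Ung rests on 1 count. With the other libraries at 0 the rule flags any count, so the chance rate does not hold for it.

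The LPS response of 5 genes differed between genotypes in edgeR's test of the difference itself. The dCIS response of Mier3 exceeded the mean of WT and KO by 0.79 on the log2 scale. Against KO, the response of Rnf144a was higher by 3.56, and the differences were -1.26 for Nol10, -0.998 for Lsm11 and -0.97 for Med21.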

How the results depend on the processing

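The LPS response called 9547 genes, and leaving out 1 library gave 9206 to 9540. Scaling by total counts, chosen after seeing the data as was leaving out untreated libraries 2 and 3, gave 2233 higher and 9448 lower. Under the other alternatives 2572 values of single-gene responses kept direction and side of the threshold and 12, of 5 genes, lost the call. On total counts Lsm11 and Med21 reversed (-0.038 and -0.14). Hdac9 reversed to 0.059 with limma voom and 0.27 without LPS libraries 3 and 4, ranged from -0.33 to 0.056 with 1 library left out, and passed the threshold at -0.87 on total counts, -0.60 without LPS libraries 1 and 2 and -0.88 for CPM on total counts. The cause was not tested.

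The count of response differences moved most. Against WT, where edgeR called 0, it was 35 without a filter, 1 with a filter of 1 CPM in 4 libraries, 10 with DESeq2, 1 with limma voom, 1 on total counts, 1 without LPS libraries 3 and 4, 221 without LPS libraries 1 and 2, and 0 to 3 with 1 library left out. Against KO (4) it was 164 without a filter, 2 with the compared groups alone, 29 with DESeq2, 26 with limma voom, 2 on total counts, 378 without LPS libraries 1 and 2, 2 without untreated libraries 2 and 3, and 2 to 167 with 1 library left out, highest without untreated dCIS library 2. Against their mean (1) it was 11 with RLE size factors, 230.0 without a filter, 94 with DESeq2, 3 with limma voom, 604 without LPS libraries 1 and 2, 0 without untreated libraries 2 and 3, and 0 to 440.0 with 1 library left out.

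Same-numbered dCIS libraries correlated at 0.07, 0.34, 0.26 and 0.04 in their deviations, while those of WT (0.11 to 0.15) and KO (0.16 to 0.30) all exceeded 0.1. As the dCIS pairs did not all exceed it, the numbers were not taken to pair the samples, although each correlated best with its own, a hint from the data. The replicate block over all groups called 9799 genes in the LPS response and the block within each genotype 9995. For the differences the replicate block over all groups gave 1 against WT and 17 against the mean, and the block within each genotype 1 against WT, 158 against KO and 345 against the mean. Low counts limit genes under about 2 CPM, where LPS libraries 3 and 4 lack reads.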
